A study of Nothobranchius furzeri with 12 samples.

Results

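A set of 184 genes, of 23546 gene identifiers in all, was abundant in brain, by the median over 6 fish, and close to absent from skin in adult Nothobranchius furzeri, the turquoise killifish, whose short life makes it a model of ageing. Members were chosen from the measured values. The median over 6 brains had to reach 200 CPM (counts scaled to a library total of 1000000), the median over the skins of fish 8, 12, 38 and 46 could be at most 1/100 of it, and the highest brain had to lie less than 10-fold above the lowest, with 0.5 CPM added to each. The levels in these 10 libraries, and any difference between the tissues fitted on them, therefore describe the choice and are no independent test. Of 847 genes with a brain median of at least 200 CPM, 185 met the limit on skin and 184 also met the limit on the spread between brains.

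The fish were 39 weeks old and of the strain MZM-0410 in the sample labels (MZM-0401 in the series description). They gave 6 brain and 6 skin libraries of total RNA, each from 1 fish identifier. The first number of the identifier was read as the animal, which the labels do not state outright. By this reading, fish 6, 8, 38, 41 and 46 were in both tissues, fish 24 in brain only and fish 12 in skin only. Treatment, sex and dissection were not given in the sources used here. Libraries held between 9100419 and 27094192 reads counted in genes, and the brains between 17555681 and 22653360.

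A vertebrate brain holds neurons, which signal through synapses, and glia, among them the cells that make myelin. Transcripts found in nervous tissue and hardly elsewhere commonly encode proteins of synaptic vesicles, ion channels, the neuronal cytoskeleton and myelin, while skin is dominated by transcripts of keratins, mucus and connective tissue. Skin also contains nerve endings, but the cell bodies of most of these neurons, and with them most neuronal RNA, lie outside it. Which of these kinds of protein the 184 genes encode is not known here, because 0 of the 23546 identifiers matched the 38438 genes of a RefSeq table of the assembly NfurGRZ-RIMD1. Members are therefore called by their rank of brain median CPM, with the identifier given for the first 2, and the tissue labels could not be checked against marker genes. In bulk tissue, fewer cells of a type and less RNA per cell cannot be told apart.

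Among the libraries labelled skin, 2 stood apart in these genes. The choice of members left both out because one was already known to be brain-like and the other to hold a trace of brain RNA, so that their distance from the other 4 skins is no independent finding. Members took 7.69% of the reads of the library labelled skin of fish 6 and 0.180% of those of the skin of fish 41, against 0.0219% to 0.0393% in the other 4 skins. In the 6 brains the share was 7.42% in fish 6, 7.88% in fish 8, 8.20% in fish 24, 8.44% in fish 38, 8.46% in fish 41 and 8.20% in fish 46, with a mean of 8.1% ± 0.395 (SD, n = 6). The library labelled skin of fish 6 thus lay inside the range of the brains, and the edgeR comparison of the tissues is given with and without it.

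Within brain, the 184 members spanned about an order of magnitude. Their brain medians ran from 202 to 2166 CPM, with a median of 327 CPM. Only 8 members reached 1000 CPM, 38 lay between 500 and 1000, 61 between 300 and 500 and 77 below 300. The first member was the gene of rank 14 among all genes in brain, and 12 members were among the 100 highest. The 10 highest members by mean over brains held 19.2% of the reads of all members, so no small group of genes made up the total. The plot of levels by member shows this slope together with the much lower and more scattered skin values.

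**Figure D1:**
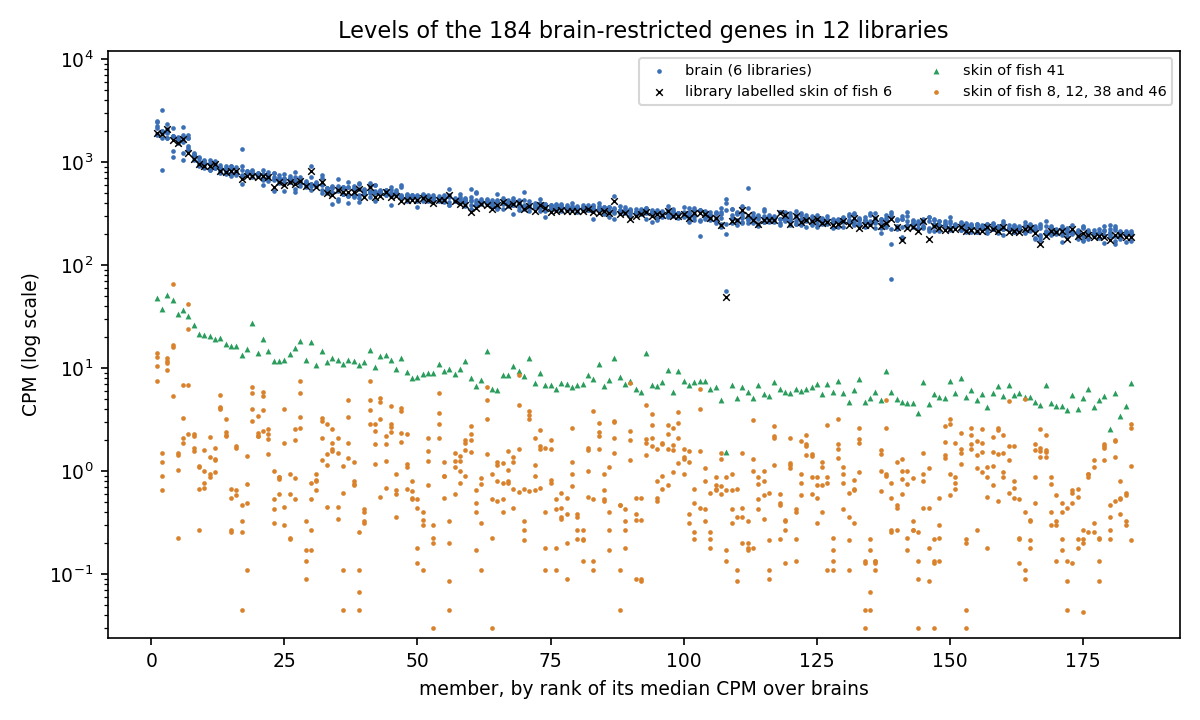
CPM on a log scale for each of the 184 members, ordered by rank of brain median, with a point per library for the 6 brains, the 4 skins used by the choice, the skin of fish 41 and that labelled skin of fish 6 (crosses). Values of 0 CPM are drawn at the lower edge. The library labelled skin of fish 6 runs along the brains, and the skin of fish 41 lies between brain and the 4 skins.

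The member of the highest level, Nfu_g_1_009468, was measured at 1828 CPM in the brain of fish 6, 2469 in fish 8, 2459 in fish 24, 2218 in fish 38, 2114 in fish 41 and 1847 in fish 46. In the 4 skins it was measured at 7.51 CPM in fish 8, 13.8 in fish 12, 10.6 in fish 38 and 12.7 in fish 46. The skin of fish 41 had 48.0 CPM of it, and the library labelled skin of fish 6 had 1903 CPM. The brains of fish 8 and 24 were its highest and those of fish 6 and 46 its lowest, and the library labelled skin of fish 6 fell between them.

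The second member, Nfu_g_1_005244, varied far more between brains. It was measured at 1704 CPM in the brain of fish 6, 837 in fish 8, 1924 in fish 24, 3178 in fish 38, 2001 in fish 41 and 1976 in fish 46. The brain of fish 38 was 3.79-fold above that of fish 8 (0.5 CPM added to each), with the other 4 brains close together. Its skins were much lower than those of the first member, at 0.889 CPM in fish 8, 1.49 in fish 12, 1.21 in fish 38 and 0.659 in fish 46, followed by 37.5 in the skin of fish 41. The library labelled skin of fish 6 had 1852 CPM.

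The next members showed the same contrast between steady and variable genes. At rank 3, the brains lay between 1696 and 2330 CPM with fish 41 highest. At rank 4 they ran from 1114 CPM in fish 8 to 2154 CPM in fish 38. At rank 5 they stayed between 1537 and 1759 CPM. The last of these was nearly flat over the brains and had at most 1.48 CPM in any of the 4 skins.

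Although the choice bounded the spread between brains only at 10-fold, nearly all members stayed far inside that limit. The ratio of the highest to the lowest brain had a median of 1.23 and an interquartile range of 1.16 to 1.35. It was below 1.2 for 73 members (39.7%), below 1.5 for 165 (89.7%) and below 2 for 178 (96.7%). The other 663 genes of at least 200 CPM in brain had smaller ratios, with 367 (55.4%) below 1.2, 617 (93.1%) below 1.5 and 650 (98.0%) below 2, and this difference was not tested.

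The coefficient of variation over the 6 brains had a median of 7.90% in members (interquartile range 5.52% to 11.6%) and 6.40% in the other 663 genes (4.54% to 8.54%). Restricted to genes of 200 to 500 CPM, the medians were 7.74% for 138 members and 6.14% for 479 others, so the gap was also present at a like level. Counting error alone would give a median of 1.21% for members. All but 1 member varied more than its own counting error. The exception, of rank 151, lay between 240.6 and 247 CPM in all 6 brains, with a coefficient of variation of 0.994%. It was followed by that of rank 18 at 2.60%, between 779 and 823 CPM.

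**Figure D2:**
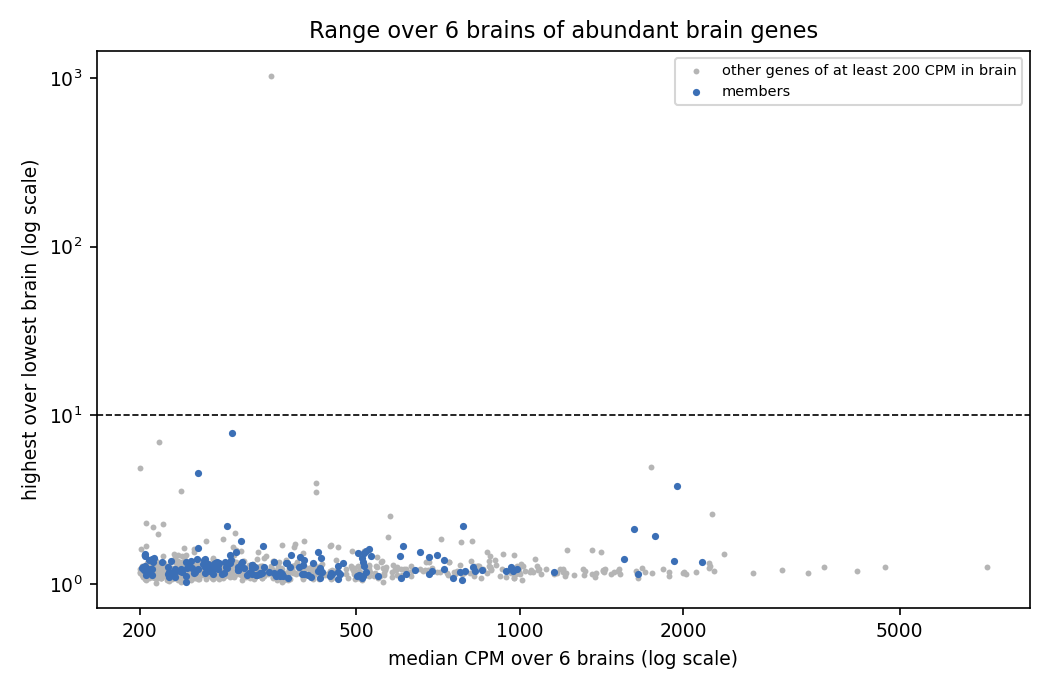
Ratio of the highest to the lowest brain against median CPM over 6 brains, both on log scales, for the 184 members and the other 663 genes that reached 200 CPM. The dashed line marks the limit of 10. Most members lie below a ratio of 1.5, and 6 members lie at 2 or above, the highest at 7.84.

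At the edges of the choice, the lowest brain median of a member was 202 CPM, and the highest skin median was 0.994% of brain, in the member of rank 63, where the nearest gene outside had 1.03%. The highest ratio between brains in a member belonged to that of rank 108, described later. The 1 gene that met the limits on level and skin but not on spread had a ratio of 1024. It was measured at 1133 CPM in the brain of fish 6, 0.971 in fish 8, 0.606 in fish 24, 749 in fish 38, 4.78 in fish 41 and 694 in fish 46. High in 3 brains and near 0 in the others, it was left out by the limit on spread, and the highest ratio of a member was 7.84.

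Of the members, 19 varied at least 1.5-fold between brains and 6 at least 2-fold. Most variable was the member of rank 108. It was measured at 251 CPM in the brain of fish 6, 340 in fish 8, 402 in fish 24, 438 in fish 38, 55.5 in fish 41 and 199.8 in fish 46, so that the brain of fish 41 stood alone at the bottom. At rank 139 the low value came from another fish, with 72.4 CPM in the brain of fish 38 against 159 in fish 6, 222 in fish 24, 291 in fish 8, 309 in fish 41 and 330 in fish 46. At rank 112 there was 1 high brain instead, fish 46 at 563 CPM, with the others between 257 and 353 CPM.

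A different order of the brains was seen in the members of rank 17 and 6. That of rank 17 ran from 607 CPM in fish 8 to 1347 CPM in fish 38, a ratio of 2.22. That of rank 6 ran from 1039 CPM in fish 8 to 2190 CPM in fish 38, a ratio of 2.11. Both shared the highest and the lowest brain with Nfu_g_1_005244 and with the member of rank 4.

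Likeness to Nfu_g_1_005244 was described by Pearson's r of log CPM over the 6 brains, which share libraries and scaling. The closest members were those of rank 6 (r = 0.915), rank 4 (r = 0.907), rank 172 (r = 0.884), rank 5 (r = 0.873) and rank 35 (r = 0.865), while the median over members was 0.0218. An r of at least 0.9 was reached by 2 members (1.09%) and by 6 of the other 663 genes (0.905%), which are near-equal shares. These values are a description over 6 points.

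**Figure D3:**
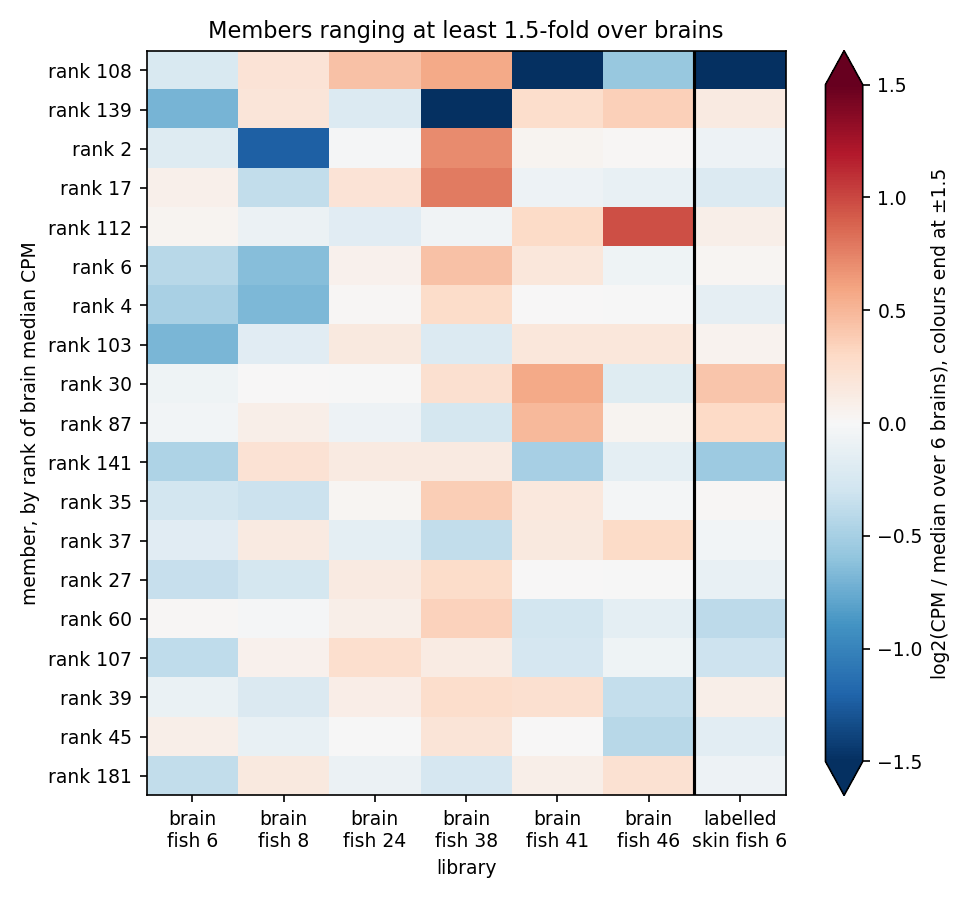
Colour map of log2 of the CPM over the median of 6 brains, for the 19 members that varied at least 1.5-fold between brains (rows, most variable first), in each brain and, in the last column, that labelled skin of fish 6; colours end at ±1.5. At rank 108 the brain of fish 41 (55.5 CPM) and that labelled skin of fish 6 (49.0 CPM) have the darkest blue. At rank 30, 87 and 141 this pair of columns also has similar colours, as the 2 libraries were close over all members.

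Over the members as a whole, the brain of fish 6 was most often lowest and that of fish 41 most often highest. The brain of fish 6 was the lowest of the 6 for 89 members (48.4%), against 187 of the other 663 genes (28.2%). Its median log2 deviation from the brain median was -0.11 for members and -0.02 for the others. The brain of fish 38 was lowest for 33 members (17.9%; 17.3% of the others). The brain of fish 41 was highest for 60 members (32.6%; 22.9% of the others), that of fish 46 for 47 (25.5%; 19.0%) and that of fish 38 for 41 (22.3%; 18.6%). That of fish 8 was highest for 20 members (10.9%; 10.4%), that of fish 24 for 8 (4.35%; 10.3%) and that of fish 6 for 8 (4.35%; 18.9%). These differences were not tested. Among the 19 members that varied at least 1.5-fold, the brain of fish 38 was highest for 10 and that of fish 6 for 0. For these counts no share among other genes is given.

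Members were also chosen again without each brain and then measured in the brain that the choice had not used, in percent of the median over the other brains. The medians were close to 100%, with single genes far from it. In the brain of fish 6, the 186 genes so chosen had a median of 91.0% and a range of 54.5% to 119%. In fish 8 the median was 100.1% (42.4% to 135%), in fish 24 it was 99.5% (76.3% to 160%) and in fish 38 it was 97.7% (24.9% to 181%). In fish 41 it was 106% (16.3% to 149%) and in fish 46 it was 103% (58.8% to 201%), each over 179 to 185 genes. No brain had more than 1 of these genes beyond 2-fold of the others.

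In the 4 skins used by the choice, members were low but seldom without reads. The skin median ran from 0.0171% to 0.994% of the brain median, with a median of 0.235%. It was below 0.1% for 44 members, from 0.1% to 0.5% for 93 and at least 0.5% for 47. No member was without reads in all 4 skins, and 178 had at least 1 read in each. Reads summed over the 4 skins had a median of 64 per member and a minimum of 6. Between 55 and 102 members had fewer than 10 reads in a given skin, so that single values there carry a large counting error. A count of 0 allows up to 3 reads, which is 0.133 CPM in fish 8, 0.128 in fish 12, 0.202 in fish 38 and 0.330 in fish 46, for counting error only.

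The skins differed in which members remained. Lowest in skin was that of rank 39, 0.0171% of brain, with 0.0445 to 0.256 CPM in the 4 skins against 405 to 620 CPM in the brains. The member of rank 4 had 65.0 CPM in the skin of fish 38 against 5.38 in fish 46, 16.0 in fish 12 and 16.6 in fish 8. At rank 7 there were likewise 42.0 CPM in fish 38 and 23.99 in fish 12, against 6.85 in fish 8 and 2.31 in fish 46. At rank 164 there were 4.94 CPM in fish 12 and 0.0889 to 0.403 CPM in the others. Above 2% of brain in at least 1 skin were 7 members, those of rank 4, 7, 69, 90, 103, 161 and 164.

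Members made up 0.0219% of reads in the skin of fish 8, 0.0265% in fish 12, 0.0393% in fish 38 and 0.0257% in fish 46, a mean of 0.0283% ± 0.00756 (SD, n = 4). The skin of fish 38 was the highest of the 4 for 77 members, fish 46 for 46, fish 12 for 43 and fish 8 for 18. No share among other genes is given beside these counts, and many members had few reads in these skins. The 10 members highest in a library, not the same genes in each, held 27.3% to 41.9% of the member reads in these skins, against 17.3% to 22.1% in the brains, 19.3% in that labelled skin of fish 6 and 19.9% in the skin of fish 41. Reads were concentrated in fewer members in the 4 skins than in any brain. The choice set a floor of 200 CPM in brain and only a ceiling in these skins, so this difference is not independent of the choice. The 2 libraries left out of the choice lay within the range of the brains in this share.

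Choosing members without a skin and measuring them in it gave a median of 0.173% of brain in fish 8 (178 genes), 0.185% in fish 12 (178 genes), 0.321% in fish 38 (192 genes) and 0.251% in fish 46 (190 genes). Of these genes, 174, 166, 171 and 174 stayed at or below 1% of brain. The highest single value in a skin not used was 3.66%, the member of rank 4 in fish 38. These percentages depend on the scaling, since the TMM factors of edgeR, which adjust for the makeup of a library, were 1.4 to 1.43 in the brains and 0.541 to 0.694 in the skins other than that labelled skin of fish 6. With TMM scaling the same medians were 0.352%, 0.486%, 0.759% and 0.555%.

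In the skin of fish 41, which the choice did not use, members sat at an even small fraction of their brain level. The median was 2.15% of the brain median, the interquartile range 1.94% to 2.41% and the full range 0.512% to 4.28%. With 168 members between 1.5% and 3%, the values were bunched, and 182 members were above all 4 other skins while all 184 were below every brain. With TMM scaling the median was 4.85%.

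The members furthest from 2.15% were of 2 kinds. The lowest was that of rank 108, at 1.51 CPM or 0.512%. Above 3% were 13 members, and of these 12 had at least 0.5% of brain in the other 4 skins. After subtraction of the median of the 4 skins, members had a median of 1.77% of the brain of the same fish number, 41. Of the members, 163 were between 1.5% and 2.5%. The SD of log2 ratios over members was 0.23 relative to the brain of fish 41 and 0.33 to 0.40 relative to the other 5 brains. The skin of fish 41 thus followed the brain of fish 41 more closely than any other brain in the spread of these ratios. How brain-restricted RNA came to be in this library was not tested.

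The library labelled skin of fish 6 carried the members at brain level. Its median was 93.8% of the brain median, with an interquartile range of 91.5% to 98.8%, and 176 members were between 80% and 120%. It was inside the range of the 6 brains for 133 members, below every brain for 51 and above every brain for 0. The members outside 80% to 120% were few. The lowest was that of rank 108 at 16.6%, and the highest were those of rank 30 at 134% and rank 87 at 123%.

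Against single brains, this library followed that of fish 41 rather than that of fish 6. All 184 members lay between 83.7% and 98.0% of the brain of fish 41, with a median of 90.7% and an SD of log2 ratios of 0.04. Against the other brains the SD was 0.24 to 0.34, as large as between brains of different fish (0.18 to 0.34 over 15 pairs), and 159 to 169 members lay between 80% and 120%. Individual members show this. That of rank 108 had 49.0 CPM here, 55.5 CPM in the brain of fish 41 and 251 CPM in that of fish 6. That of rank 30 had 818 CPM here, 905 CPM in the brain of fish 41 and at most 721 CPM in any other brain. That of rank 87 had 414 CPM here, 470 CPM in the brain of fish 41 and at most 357 CPM in any other brain. What this library contains other than by its label was not tested, and it is called by its label throughout.

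**Figure D4:**
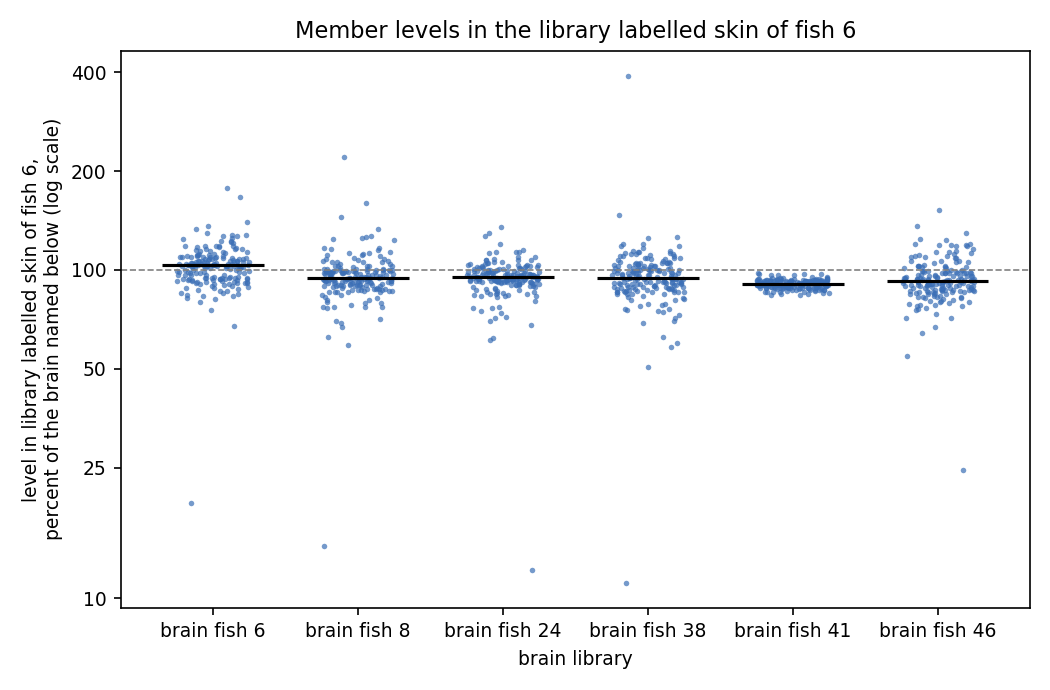
Level of each of the 184 members in the library labelled skin of fish 6, in percent of its level in each of the 6 brains (log scale), with a point per member and the median marked. Against the brain of fish 41 all members lie between 83.7% and 98.0%, and against each other brain some fall outside 80% to 120%.

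Gene length was not used by the choice. Lengths are those implied by the deposited counts, RPKM values (reads per kilobase of gene and 1000000 reads) and library totals. Members had a median length of 5215.5 bases, with an interquartile range of 2824 to 8161 and a range of 354 to 26976. The other 663 abundant genes had a median of 4234 bases and all genes 2324 bases. Above 10000 bases were 28 members (15.2%), 13.9% of the other abundant genes and 2.40% of all genes, whereas below 1000 bases the shares were 6.52%, 14.3% and 22.4%. At equal molar level a longer transcript gives more reads, and both abundant sets were taken at the same CPM threshold.

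Levels per length reordered the members. Brain medians ran from 13.0 to 3312 RPKM with a median of 74.2 RPKM, and only 8 of the 20 highest members by CPM were among the 20 highest by RPKM. Nfu_g_1_009468, of 654 bases, was first on both scales, at 3312 RPKM. Nfu_g_1_005244, of 1588 bases, had 1228 RPKM. The shortest members, of rank 32 and 56 with 354 bases each, had 1699 and 1219 RPKM and moved up to rank 2 and 7 by RPKM. The members of rank 34 and 27, with 399 bases each, moved to rank 5 and 3. In the opposite direction, the longest member, of rank 80 with 26976 bases, had 359 CPM but 13.3 RPKM and rank 183.

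**Figure D5:**
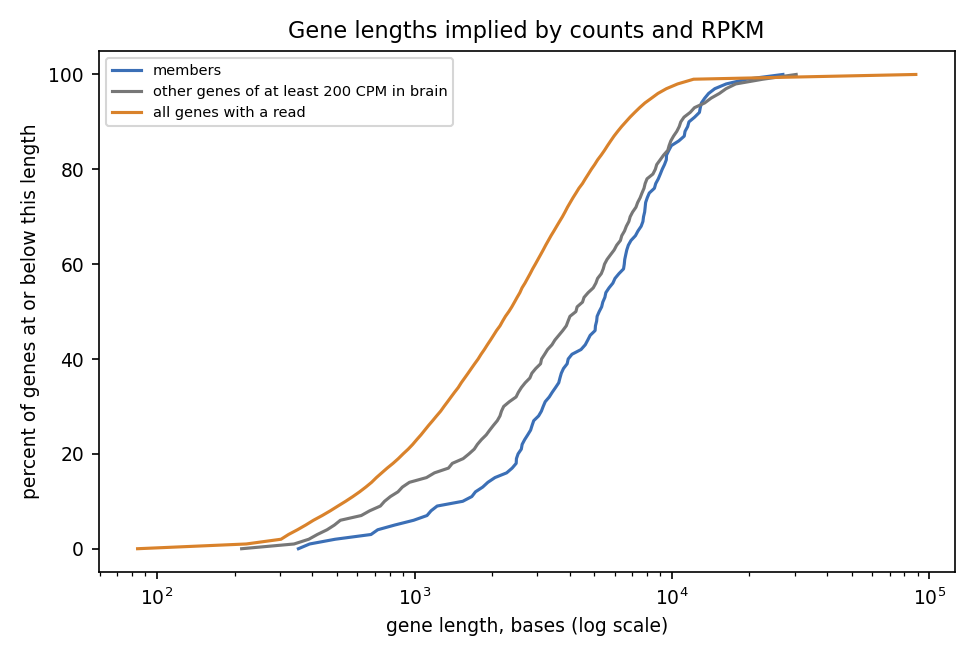
Cumulative share of genes by implied gene length in bases (log scale) for the 184 members, the other 663 genes that reached 200 CPM and all genes with an implied length. The curve of the members lies to the right at most lengths and crosses that of the other abundant genes among the longest, with a median of 5215.5 bases against 4234 and 2324.

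The comparison of the tissues across all genes was made with edgeR's quasi-likelihood test, Benjamini-Hochberg adjusted at a false discovery rate of 0.05, and the choice of members used this contrast, so that the calls and fold changes of members restate the choice and are given as a description. With all 12 libraries under their labels, 2 of the 184 members were called higher in brain, beside 24% of all 19797 genes tested. An unadjusted p under 0.05 was found for 33 members. The share of all genes at that level was not computed, but it is at least the 24% called after adjustment. Beyond 2-fold 1 member was called, beside 0.940% of all genes. The fitted log2 fold changes of members had a median of 2.52 and a range of 2.15 to 4.85, against a median of 0.07 over all genes, with a median standard error of 1.31. Standard errors (SE) of these fits are approximate, computed as the absolute log2 fold change over the square root of the F statistic of the test. Members were at brain level in 1 of the 6 libraries labelled skin.

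The 2 members called were those of rank 108 (log2 fold change 4.85, SE 1.25) and rank 167 (2.74, SE 1.01). Their levels in that labelled skin of fish 6 were 16.6% and 75% of the brain median. Nfu_g_1_009468 had a log2 fold change of 2.58 (SE 1.16) and Nfu_g_1_005244 one of 2.54 (SE 1.59), and neither passed.

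Without the library labelled skin of fish 6, all 184 members were called higher in brain, also beyond 2-fold, beside 39.6% and 27.1% of 20149 genes. Their choice used 4 of these 5 skins. The median log2 fold change of members was 6.06, with a range of 4.58 to 7.50. For Nfu_g_1_009468 it was 5.66 (SE 0.52) and for Nfu_g_1_005244 it was 6.65 (SE 1.23). With the 10 libraries of the choice, where the rule itself sets the size, the median was 7.45. A further fit used the fish number as a block over the 5 numbers found in both tissues, all 10 libraries as labelled. It called 183 members, beside 29.3% of 19818 genes, and 0 beyond 2-fold, where 8 genes passed in all. The adjusted p of members by the quasi-likelihood test ran from 0.0343 to 0.0504 (median 0.0354), close to the threshold of 0.05. In this fit the library labelled skin of fish 6 was blocked with the brain of fish 6. The median log2 fold change of members was 5.88.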

How the data were processed

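RNA of 6 brains and 6 skins was measured by sequencing of Illumina TruSeq libraries, per the labels. The authors deposited 1 table of read counts per gene, not normalized, and of RPKM values. The submitters' processing notes name featureCounts 1.4.3-p1, TopHat2 2.0.6 and CASAVA 1.8.4 without saying what each did. Not given in the sources used here were genome build, annotation and strand setting. Genes that overlap or have near-identical copies may share reads. Count, RPKM and total gave 1 length per gene within a relative tolerance of 0.001 (0 of 23212 genes deviated).

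CPM was computed on the sum of gene counts, which sets the precision. The members and lists were chosen with earlier results of these data known. By the rule for named genes, the identifiers of the 2 members of highest brain median are printed, and other members are called by rank. Some were singled out for description after their values were seen. The lists of cell type markers could not be applied without gene names.

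The tissues were compared over all genes with edgeR 4.0.16 (R 4.3.3; TMM factors, default filter on low counts, robust quasi-likelihood fit), Benjamini-Hochberg adjustment at 0.05, and a test for a change beyond 2-fold. The edgeR fit was tested on simulated counts. Their spread was that of the brains, and no simulated skin was set at brain level for the changed genes. The simulation therefore did not cover the fit with the library labelled skin of fish 6. Alternatives were library-size scaling, DESeq2 1.42.0, limma 3.58.1 on log2(RPKM + 1) and log2(RPKM + 0.1), other thresholds of the choice, libraries left out, and the fish number as a block. Fish identifiers in the labels share a first number between tissues and differ in the digit after it. The first number was read as the animal, which the labels do not state outright. Their deviations from the tissue means correlated at 0.180 in fish 38, 0.0173 in fish 41, 0.110 in fish 46, -0.257 in fish 6 and 0.0303 in fish 8. The skin mean included the library labelled skin of fish 6, which shifts the skin deviations of every fish. These correlations therefore do not test that reading of the numbers.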

Additional observations from a re-analysis of the deposited data

Results flagged for a closer look

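The library labelled skin of fish 6 stood far from the other 5 libraries labelled skin in each of 4 values examined there. Members took 7.69% of its reads against 0.0219% to 0.180% in the others. The median level of members was 93.8% of the brain median in it and 2.15% in the next skin, that of fish 41. Nfu_g_1_009468 had 1903 CPM in it and at most 48.0 CPM in the others, and Nfu_g_1_005244 had 1852 CPM and at most 37.5 CPM. Of 8 groups of values examined, these 4 were far out. They share 1 library and the same genes, and the choice left that library out as brain-like while asking for low values in 4 of the others. The rate of about 1 in 20 that chance gives for single groups therefore does not apply to them. Of the 184 members, 5 had 1 brain far from the other brains. The choice bounded the spread between brains and the members share the same libraries, so that the chance rate does not apply to this count either. The share among other genes was not computed.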

How the results depend on the processing

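The number of members called higher in brain was 2 with all libraries as labelled, 1 with library-size scaling (beside 43.0% of all genes), 109 with DESeq2 (28.4%; 162 members at an unadjusted p under 0.05), 184 with the 10 libraries of the choice (40.5%) and 184 with limma at either pseudocount (55.5% and 55.7%). Library-size scaling, DESeq2 and limma were run only on all 12 libraries as labelled. With DESeq2, 4 members had no adjusted p and could not be called. The share of all genes at an unadjusted p under 0.05 was not computed there, but it is at least the 28.4% called after adjustment. Beyond 2-fold the number of members called was 1 as labelled (beside 0.940% of all genes), 0 with library-size scaling (0.788%) and 1 with DESeq2 (0.526%). It was 184 with the 10 libraries (28.6%) and with limma (13.9% and 24.3%). Leaving out 1 library at a time gave 1 to 184 members called, and 1 to 184 beyond 2-fold. The value of 184 was reached where the library labelled skin of fish 6 was the one left out (beside 39.6% and 27.1% of all genes). Each other such fit gave 1 (beside 14.0% to 23.3%, and beyond 2-fold 0.523% to 0.773%). The median log2 fold change was 2.26 to 6.06 over the fits with 1 library left out and 7.45 with the 10 libraries. On log2(RPKM + 1) and log2(RPKM + 0.1) it was 4.73 and 6.17, lower with the larger pseudocount, and both lay above the 2.52 of edgeR on the same libraries. RPKM carried no TMM factor, and the median over all genes was 0.559 and 0.911 there, against 0.07 with edgeR. With edgeR and library-size scaling, also without TMM factors, the median was 2.61 for members and 0.984 over all genes. Why limma gave higher values for members was not tested. With the replicate block on fish number, 183 members were called (29.3% of all genes), 0 beyond 2-fold (0.0404%), and the median was 5.88. The adjusted p of members lay close to the threshold in that fit, as given above. With the block but without both libraries of fish 6, a fit chosen after seeing the data, 184 members were called (41.9%), 184 beyond 2-fold (28.0%), and the median was 6.73.

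The choice gave 383 members at a threshold of 100 CPM and 86 with TMM scaling, and 178 to 192 with 1 library left out. With skin limited to 1/50 of brain it gave 229, and with skin limited to 1/200 it gave 137. With deposited RPKM and a threshold at the same rank it gave 160 genes, of which 89 were among the 184. With the skin of fish 41 added it gave 176, and with all 6 libraries labelled skin 167. The share of brain reads was 5.72% with TMM scaling and 5.91% for members at most 1/200 of brain in skin. The median coefficient of variation was 6.59% without the brain of fish 6 and 7.35% to 8.44% with any other brain left out. The median level in the library labelled skin of fish 6 was 95.9% with TMM and 94.9% over summed reads, and in the skin of fish 41 it was 4.85% and 2.22%. The same pair of values in skins not used by the choice was 0.352% and 0.266% in fish 8, 0.486% and 0.343% in fish 12, 0.759% and 0.559% in fish 38, and 0.555% and 0.369% in fish 46. The median length was 4781 bases at a threshold of 100 CPM and 2809.5 bases in the upper 50% of members by RPKM. The brain of fish 6 was lowest for 91 members under TMM, a count chosen after seeing the data. Depth limits the skin values, with a median of 64 reads per member summed over 4 skins.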
